A study of Mus musculus with 49 samples.

Results

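The 3 budding organoid libraries grown from Cdx2-transduced dediHeps (dediHep-BOs) were compared with the 5 libraries of dediHeps kept in monolayer, over all genes of the deposited count table. These 8 libraries, of 49 in the series, were taken by their labels, and no measured value was used to choose them. The comparison spans the whole conversion, from the dedifferentiated hepatocyte to an organoid with the form of adult small intestine.

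The series follows mouse hepatocytes through dedifferentiation in culture and through later redirection to hepatic or intestinal fates. Expression was measured by CEL-Seq2, in which barcoded primers capture the 3′ end of each transcript and random tags of 6 bases, the unique molecular identifiers (UMIs), count molecules. All libraries used here came from wild-type C57BL/6J mice. The hepatocytes were isolated from animals 10 weeks old, separated from non-parenchymal cells by centrifugation and expanded on collagen in a medium with EGF at 20 ng/mL. The dediHeps are the passaged progeny of these cells, held in that medium as a monolayer. For dediHep-BOs, dediHeps were infected with a retrovirus carrying Cdx2, embedded in Matrigel, and given EGF, Noggin and R-spondin1, at first with Wnt3a and the GSK3 inhibitor CHIR99021. The dediHep-BOs thus differed from the dediHeps in the transgene, in the 3-dimensional matrix and in the medium at once, and the effects of these cannot be told apart in this comparison. Beside them stand 3 libraries of spherical organoids from dediHeps that received no transgene (dediHep-SOs) and 4 libraries of budding organoids from the crypts of adult intestine of mice 10 weeks old (ISC-BOs). The transgene had no cell type restriction, and no label says whether the 3 organoid libraries came from 1 infected culture or several. The p-values therefore measure the spread between these libraries, which may be partly technical.

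As background, the lining of the small intestine is renewed from Lgr5-positive stem cells at the crypt base, which depend on Wnt signals from neighbouring Paneth cells and mesenchyme. Their daughters become absorptive enterocytes or the secretory goblet, Paneth, enteroendocrine and tuft cells, under the control of Notch signalling and the factor Atoh1. Cdx2 is a homeobox transcription factor that sets and holds intestinal identity in the endoderm, and the adult liver lacks it. Hepatocytes in monolayer lose much of their enzyme programme, take on part of a mesenchymal programme and activate Yap, a transcriptional coactivator that responds to cell shape and stiffness.

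Total UMI counts ran from 1631842 to 2848505 over the 8 libraries, so that 3 counts, the floor used here for a gene at 0, stood for 1.05 to 1.84 CPM. Levels below are CPM, counts divided by the size of their library after TMM scaling, and intervals and floors cover counting error only. In each fit, a gene was called where edgeR's quasi-likelihood test gave a Benjamini-Hochberg adjusted p below 0.1 and the log2 fold change passed 2 in either direction, and both thresholds follow the methods published with the data. A gene with no count in one group passes the filter only through the other group, which fixes its direction. The dediHep-BO libraries resembled each other (Spearman correlations of 0.927 to 0.957 across genes). The dediHeps varied more: dediHep 1 correlated with the other 4 at 0.710 to 0.811, and those 4 with each other at 0.861 to 0.904. Counts of 4 Y-linked genes were 0 in dediHep-BOs 1 and 2 and 622 in dediHep-BO 3. Among the dediHeps they were 0, 0, 864, 48 and 52 in libraries 1 to 5. The published methods name male donors, whereas Xist, the RNA that coats the inactive X chromosome, had 738 counts in dediHep 1, 21 in dediHep-BO 1 and 579 and 511 in ISC-BOs 1 and 2, and these 4 libraries held no Y-linked count. Every other library of the 4 groups held at most 1 count of Xist. Without dediHep 1, 778 genes were higher and 904 lower than in the remaining dediHeps. A fit of the 2 dediHep-BOs and 2 dediHeps without such counts, chosen after seeing the data, called 963 genes higher and 853 lower, and the libraries with such counts held a single dediHep-BO.

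Of 11766 genes tested, 726 were higher in dediHep-BOs than in dediHeps (6.17% of genes tested) and 941 were lower (8%). At the adjusted p alone, 3909 genes differed. The median log2 fold change of all tested genes was -0.04, and 7868 genes (66.9%) lay within 1 log2 unit of 0. The TMM scaling draws the centre of this distribution towards 0, and the fold threshold places the calls at its edges, so neither is a result. In such bulk libraries, fewer cells of a type and less RNA per cell cannot be told apart.

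**Figure D1:**
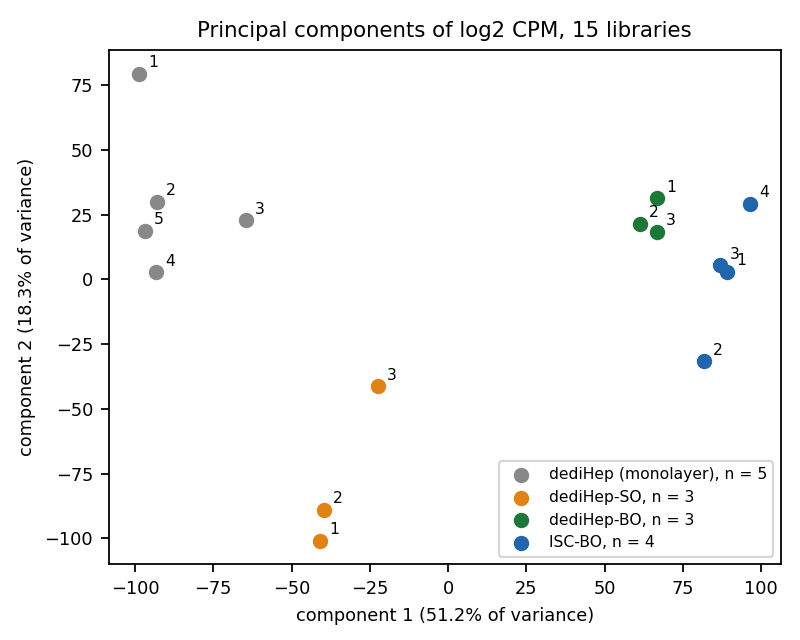
Principal components 1 (51.2% of variance) and 2 (18.3%) of log2 CPM over 12585 genes in the 15 libraries of dediHeps, dediHep-SOs, dediHep-BOs and ISC-BOs, each point being 1 library numbered by its replicate. On component 1 the dediHeps lie from -98.7 to -64.6, the dediHep-SOs from -40.9 to -22.3, the dediHep-BOs from 61.3 to 66.8 and the ISC-BOs from 81.7 to 96.5.

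**Figure D2:**
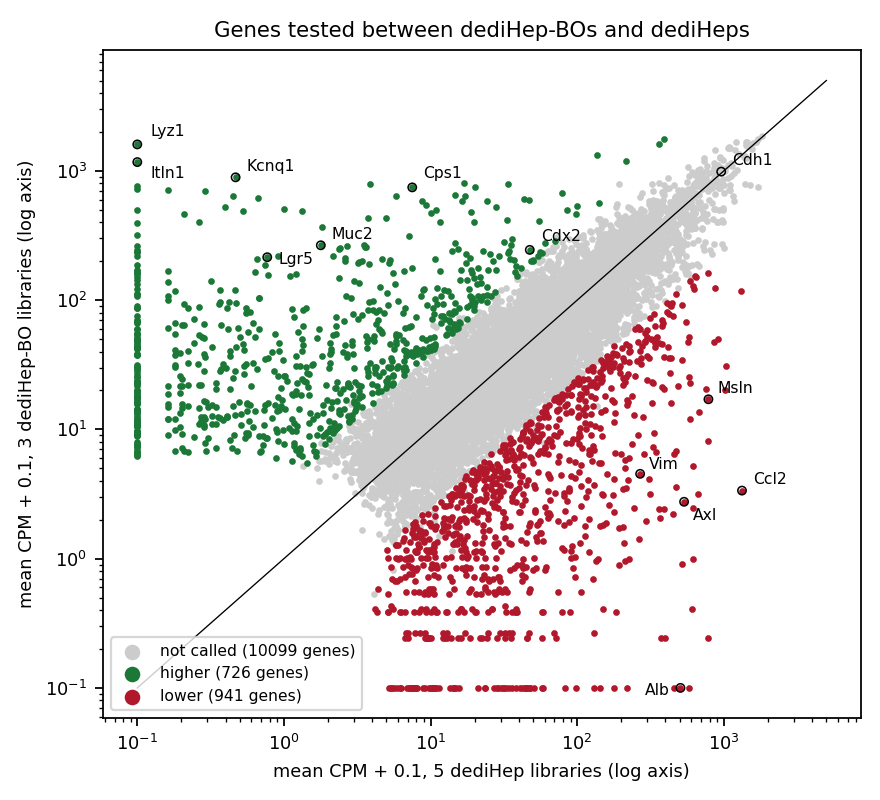
Mean CPM plus 0.1 in the 3 dediHep-BO libraries (y axis, log scale) against the 5 dediHep libraries (x axis, log scale), with 1 point per tested gene, green where higher, red where lower and grey where not called. Lyz1 and Itln1 stand at the left edge, with no count in the dediHeps, and Alb at the bottom edge, with no count in the dediHep-BOs, whereas Cdh1 lies on the diagonal.

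Cdx2 itself (chr5:147300805-147307270, minus strand, GRCm38) was 177, 201 and 356 CPM in the 3 dediHep-BOs. In the dediHeps it was 2.19, 70.7, 122, 33 and 9.16 CPM, so the transduced gene was present in every untransduced dediHep library, and the groups did not overlap. The fitted log2 fold change was 2.38 ± 0.84 (SE, n = 3 and 5, edgeR adjusted p = 0.0627). The call was lost without dediHep 4 or 5, without any single dediHep-BO (2.04 to 2.57) and among the libraries without Y-linked counts. ISC-BOs held 354, 362, 354 and 308 CPM, and dediHep-SOs, which had no transgene, 86, 70.3 and 103 CPM. No Cdx2 count appeared in any fresh or cultured hepatocyte library of the series, nor in the chemically induced progenitors (CLiPs). Counts of 3′ tags do not separate the viral from the endogenous transcript.

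Targets that Cdx2 controls in the absorptive cell were the next to be examined. Sis, sucrase-isomaltase of the brush border, was 313, 137 and 113 CPM in dediHep-BOs and 0 in all 5 dediHeps, which makes it at least 701-fold higher against the floor of 3 counts over the group. Fabp2, the intestinal fatty acid-binding protein, was 512, 309.9 and 644 CPM against 0, 2.54, 1.85, 1.22 and 0.482 (log2 fold change 8.54 ± 0.54, edgeR adjusted p = 7.17e-06). Fabp1, the form shared by liver and intestine, was 654, 373 and 735 CPM against 3.28, 42.7, 34.2, 21.6 and 19.8 (4.61 ± 0.56, edgeR adjusted p = 0.000242). Neither gene's groups overlapped. Alpi, intestinal alkaline phosphatase, stood at 443, 458 and 356 CPM in dediHep-BOs. Its dediHep values were 0, 15.8, 134, 7.33 and 8.68 CPM, with dediHep 3 far above the rest (3.66 ± 1.09, edgeR adjusted p = 0.0319). Mep1b, a subunit of the brush border protease meprin, was 75.1, 68.3 and 59.1 CPM against 0 in every dediHep library, at least 259-fold higher. Mttp, which loads lipid onto apolipoprotein B, was 248, 194 and 282 CPM against 2.19 to 24.4 (4.12 ± 0.53). Lct, lactase, remained low at 9.51, 3.89 and 1.29 CPM and did not pass the filter, with a ratio of 27 to the dediHeps (95% counting interval 6.88 to 233).

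The proximal promoters of 6 of these genes, all but Mep1b, were searched for TTTATNG, the core that CDX proteins recognise, on both strands. The windows run from 250 bases before to 50 bases after the start of transcription and come from RefSeq (GRCm38.p6). Matches were found in 4 of the 6, with none in Mttp or Lct, and the 4 windows are shown because they are the ones that carry the core beside a called gene, with each match in capitals. They are Sis (chr3:72967814-72968113, minus strand), Alpi (chr1:87101557-87101856, minus strand), Fabp1 (chr6:71199629-71199928, plus strand) and Fabp2 (chr3:122894822-122895121, plus strand).
Sis: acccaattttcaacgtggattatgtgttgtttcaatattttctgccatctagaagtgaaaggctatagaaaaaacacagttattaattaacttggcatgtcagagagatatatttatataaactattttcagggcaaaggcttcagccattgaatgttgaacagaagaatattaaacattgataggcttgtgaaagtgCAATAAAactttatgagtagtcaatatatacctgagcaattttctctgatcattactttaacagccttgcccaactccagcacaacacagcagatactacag
Alpi: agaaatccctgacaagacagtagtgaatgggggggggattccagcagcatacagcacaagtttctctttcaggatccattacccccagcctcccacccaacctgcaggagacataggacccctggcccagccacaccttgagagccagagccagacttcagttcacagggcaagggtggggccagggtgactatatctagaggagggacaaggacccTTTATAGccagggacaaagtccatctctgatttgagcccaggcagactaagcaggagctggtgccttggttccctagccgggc
Fabp1: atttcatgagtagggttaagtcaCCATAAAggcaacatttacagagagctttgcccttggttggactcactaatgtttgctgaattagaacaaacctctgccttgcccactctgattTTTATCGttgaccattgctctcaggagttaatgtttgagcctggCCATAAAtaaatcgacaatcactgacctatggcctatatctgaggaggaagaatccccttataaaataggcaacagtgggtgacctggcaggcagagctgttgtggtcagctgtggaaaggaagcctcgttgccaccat
Fabp2: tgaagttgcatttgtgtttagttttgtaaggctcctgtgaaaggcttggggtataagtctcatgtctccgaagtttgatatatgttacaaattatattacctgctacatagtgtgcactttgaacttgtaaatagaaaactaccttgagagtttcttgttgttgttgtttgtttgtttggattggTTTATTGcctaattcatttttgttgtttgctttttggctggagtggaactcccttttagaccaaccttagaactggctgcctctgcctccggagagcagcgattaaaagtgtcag
Fabp1 held 3 matches and the others 1 each. The same core was found in 12.5% of all 27025 genes with a window, in 14.7% of the 551 higher genes with one, in 9.42% of 701 lower genes and in 7.68% of 7213 genes not called. Of the enterocyte genes that were higher, 7 of 24 with a window held it. A match of letters is a description of the window and not evidence of binding.

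Genes of the crypt stem cell formed one of the clearest groups. Of 21 listed members 19 passed the filter, and 16 of these were higher, 0 lower, with a median log2 fold change of 4.68. Of the 21, 5 had no count in any dediHep and could only come out higher or untested. Lgr5, the R-spondin receptor that marks the stem cell, was 237, 250.2 and 156 CPM in dediHep-BOs against 0, 0.508, 1.54, 0.814 and 0.482 in dediHeps (8.09 ± 0.49, edgeR adjusted p = 7.17e-06). Ascl2, a Wnt-dependent transcription factor of the stem cell, was 377, 329 and 405 CPM against 0 to 5.29 (7.68 ± 0.63). Ephb2, which holds cells in position along the crypt, was 65.6, 73.5 and 141 CPM against 3 dediHep libraries at 0 and 2 below 1. For these genes the groups were far apart. Smoc2 rose from 0 in all dediHeps to 155, 157 and 139 CPM, at least 579-fold. Sox9, a crypt and bile duct factor, was not called and its groups overlapped, at 405, 427 and 322 CPM against 92.6 to 342, and Cd44 and Lrig1 were likewise not called. Olfm4, a common stem cell marker of mouse small intestine, was at 0.501, 1.30 and 0 CPM and below the filter, a value named after it was seen.

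Among intestinal transcription factors, 7 of 17 tested members were higher and 1 was lower, with a median of 1.31. Cdx1, the paralogue of Cdx2, was 96.1, 80.4 and 21.6 CPM in dediHep-BOs and had 1 count over the 5 dediHeps, a ratio of 746 (95% counting interval 133 to 29550). Hnf4g, the intestinal partner of Hnf4a, was 55.6, 42.8 and 28.4 CPM against 0 in every dediHep, at least 160-fold higher. Vdr, the vitamin D receptor, was 484, 826 and 941 CPM against 9.26 to 34.1 (5.25 ± 0.43). Gata5, an endodermal zinc finger factor, was 75.1, 79.1 and 9.05 CPM against 0 to 1.64 (6.06 ± 0.79), so that dediHep-BO 3 lay well below the others. Elf3 and Prdm1 were also higher. Factors common to liver and gut showed smaller differences that were not called: Hnf4a was 373, 274 and 333 CPM against 128 to 369.9 (0.44 ± 0.30), and Klf5, a factor of proliferating gut epithelium, was 114, 106 and 141 CPM against 37.4 to 61.4 (1.31 ± 0.26, edgeR adjusted p = 0.00409). Maf, lower at -2.08 ± 0.74 (edgeR adjusted p = 0.0624), overlapped between groups, with 18.5, 27.7 and 65.1 CPM against 27.5 to 279.6, and its call was lost in the fits without dediHep 2, 3 or 4 or without dediHep-BO 1 or 2 (-2.02 to -1.76).

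**Figure D3:**
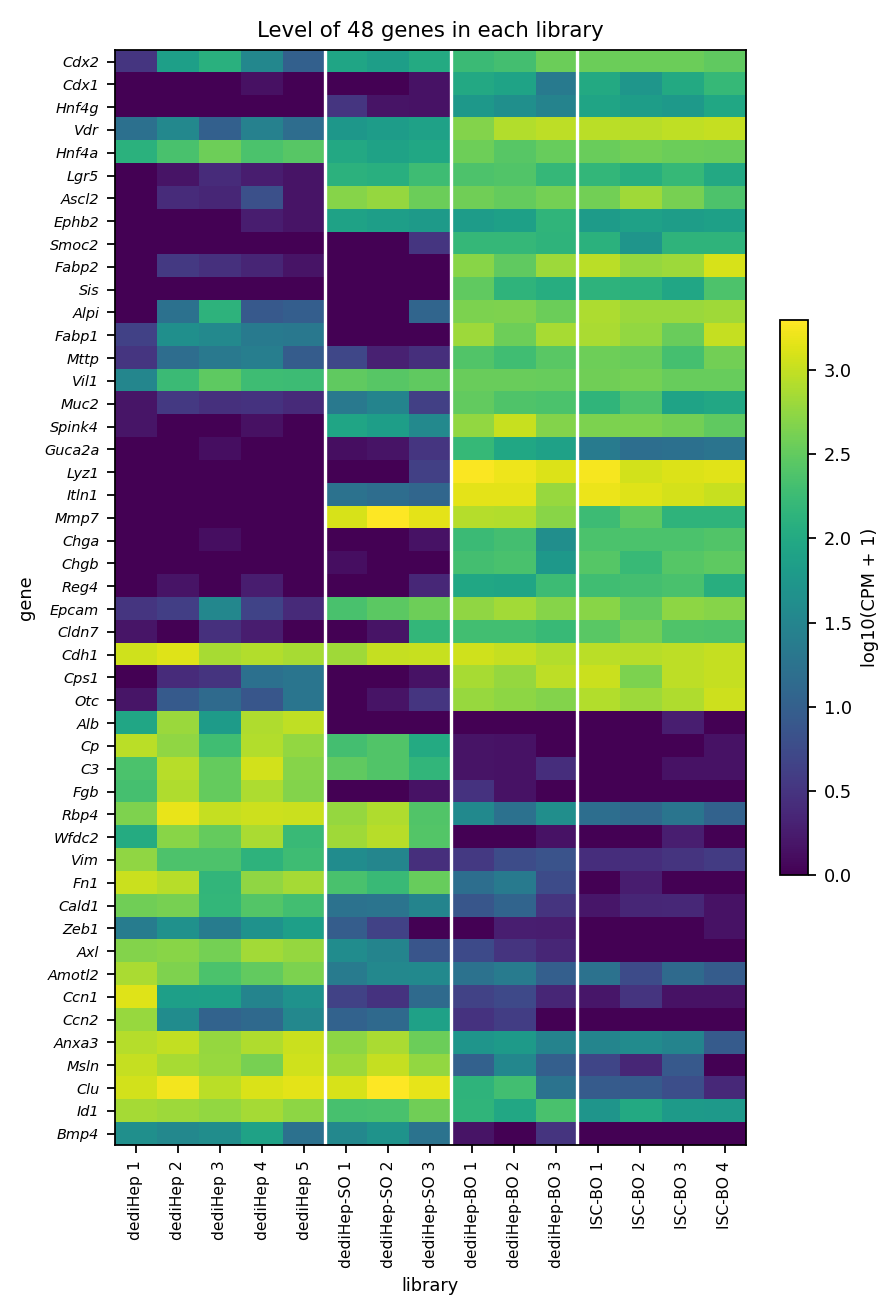
Level of 48 genes (rows) in each of the 15 libraries (columns) as log10 of CPM plus 1, white lines separating dediHeps, dediHep-SOs, dediHep-BOs and ISC-BOs. The stem cell genes Lgr5 and Ascl2 are high in dediHep-BOs, ISC-BOs and dediHep-SOs, the mature genes Sis, Lyz1 and Chga are high in both kinds of budding organoid and at or near 0 in the others, and Alb and Fgb are high in dediHeps.

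The enterocyte list held 49 genes, 48 of them in the table, and 40 passed the filter: 27 were higher, 0 lower and 13 not called, with a median of 3.80. Of the 48, 5 had no count in any dediHep and could only come out higher or untested. Npc1l1, the cholesterol transporter of the brush border, was 59.6, 61.4 and 62.5 CPM and had 1 count over all 5 dediHeps. The chloride-bicarbonate exchanger Slc26a3 was 42, 35.9 and 73.7 CPM against 0 to 0.508. Dpp4, a brush border peptidase, was 125, 82.1 and 102 CPM against 0 to 1.54 (7.19 ± 0.58, edgeR adjusted p = 2.83e-05). The sodium-glucose transporter Slc5a1, named after its value was seen, was 275, 219 and 210.3 CPM against 0 in every dediHep. Apoa4, an apolipoprotein of the chylomicron, was 1074, 399 and 469.8 CPM against 0.547 to 49.7 (5.44 ± 0.91). Several absorptive genes were already present in monolayer. Vil1, villin of the microvillus, was 343, 344 and 336 CPM against 31.8, 177, 303, 189 and 183 (0.98 ± 0.48, edgeR adjusted p = 0.167) and was not called, although the groups did not overlap. Krt20, a keratin of the villus tip outside the naming rule, was 529, 314 and 320.3 CPM against 132 to 439 and was not called.

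Goblet cell genes were higher in 15 of 17 tested members of 20 listed (median 7.25, or 6.76 with genes at 0 set to their bounds), and none was lower. Of the 20, 7 had no count in any dediHep and could only come out higher or untested. Muc2, the gel-forming mucin of the gut, was 317, 247 and 232 CPM in dediHep-BOs and 0.547, 2.54, 1.85, 2.04 and 1.45 in dediHeps (7.25 ± 0.36, edgeR adjusted p = 3.24e-06). Fcgbp, which is secreted with the mucin, was 166, 137 and 115 CPM against 1.09 to 4.34 (5.58 ± 0.36). Spink4, a secreted protease inhibitor of goblet cells, was 574, 1032 and 476 CPM, with 2 counts over the dediHeps. Guca2a, the precursor of guanylin, was 158, 90.3 and 75 CPM and had 1 dediHep count.

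Among the intestinal lists the Paneth cell genes had the highest median (10.86, or 8.57 at the bounds). Of 18 members 12 were tested, 11 of them higher and none lower, and 15 of the 18 had no count in any dediHep. Those 15 could only come out higher or untested, so the lack of lower members says little. Lyz1 (chr10:117287797-117292868, minus strand), the Paneth lysozyme, was 1872, 1616 and 1317 CPM in dediHep-BOs and 0 in the dediHeps, at least 6124-fold higher (edgeR adjusted p = 8.44e-06). Itln1, the lectin intelectin, was 1459, 1435 and 613 CPM against 0, at least 4451-fold. Mmp7, the matrilysin that processes defensins, was 852, 819.9 and 505 CPM against 0, and Ang4, a bactericidal ribonuclease, 451, 447 and 278 CPM against 0. Lyz2, the macrophage lysozyme, was 1054, 680.3 and 396 CPM with 1 dediHep count. Lyz1 and Lyz2 are close in sequence, as are the defensins, so counts within each family may be shared. Of the 9 immune cell genes searched, Lyz2 was the only one tested, and Adgre1, Cd3e and Cd79a had no count in any of the 8 libraries.

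The enteroendocrine list was mostly too low for the test: 10 of 31 members passed, with 7 higher and 2 lower. Of the 31, 21 had no count in any dediHep and could only come out higher or untested. Chga, chromogranin A of hormone granules, was 174, 201 and 41.8 CPM against 1 dediHep count. Chgb was 203, 221 and 56 CPM against 0, and the prohormone convertase Pcsk1 18, 36.3 and 13.4 CPM against 0. In each, dediHep-BO 3 was the lowest of the 3 libraries. Reg4, a secreted lectin of the regenerating family, was 91.6, 85.1 and 182 CPM against 0 to 0.814. Neurog3, which starts the endocrine programme and was named after its value was seen, was 11.5, 4.75 and 10.8 CPM against 0. The lower pair were Bex2 and Nts, neurotensin, at 0.501, 2.16 and 2.16 CPM for Nts against 2.78 to 32.3 (-2.66 ± 0.96, edgeR adjusted p = 0.0678), a call lost without any single dediHep-BO (-2.93 to -2.27) and after thinning the libraries to equal totals (-2.44). Of 15 tuft cell genes 1 passed the filter, the cyclooxygenase Ptgs1, and it was lower, at 1.00, 1.30 and 0.862 CPM against 3.28 to 44.4 (-4.17 ± 0.96, edgeR adjusted p = 0.00985). DESeq2, which tested more low genes, called 15 enteroendocrine, 17 Paneth and 5 tuft cell genes higher.

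Many regional markers were too low for the test, with 5 of 10 proximal, 3 of 6 ileal and 5 of 10 colon genes tested. Of those tested 1, 2 and 2 were higher and 0 lower, beside 6.17% higher among all genes tested. Cyp2b10, a cytochrome of proximal small intestine, was 37, 35 and 12.1 CPM against 0 to 0.926 (6.22 ± 0.73, edgeR adjusted p = 0.000196) and was the single call among 5 tested of 10 listed, while DESeq2, the fit with no filter and the fit of all libraries each called 4 of the 10 higher, and the replicate block 2. Clec2h of the ileal list was 72.6, 88.6 and 129 CPM against 0 to 13.9 (4.60 ± 0.98). Of 5 tested colon genes 2 were higher, Muc4 and the water channel Aqp4, the latter at 147, 147 and 137 CPM against 0. The colon enzyme Car1 and the distal homeobox gene Hoxb13 had no count in dediHep-BOs.

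Defence genes of the mucosa split evenly, with 6 of 12 tested members higher and 6 lower. Among the higher genes were the products of gut epithelium. Dmbt1, a secreted scavenger protein, was 754, 451 and 313 CPM against 0 to 2.47 (8.94 ± 0.76, edgeR adjusted p = 3.40e-05), Pigr, which carries IgA across the epithelium, 440.0, 583 and 444 CPM against 0 to 1.23, and Duox2, a hydrogen peroxide-producing oxidase, 168, 159 and 26.7 CPM with 1 dediHep count. Reg3g, a bactericidal lectin, was 923, 501 and 75 CPM against 0, so that the dediHep-BOs were far apart among themselves. The lower genes included chemokines and an acute-phase protein. Cxcl1 was 1.5, 2.16 and 1.29 CPM against 318, 231, 146, 103 and 221 (-6.89 ± 0.57, edgeR adjusted p = 3.07e-05), Cxcl5 0.501, 4.75 and 1.72 CPM against 37.3 to 756 (-7.31 ± 1.11), and Lcn2, lipocalin 2, 0, 0.864 and 0 CPM against 31.2 to 485. Ccl20, Saa3 and Nos1ap were also lower, with calls that were each lost in at least 1 alternative fit.

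**Figure D4:**
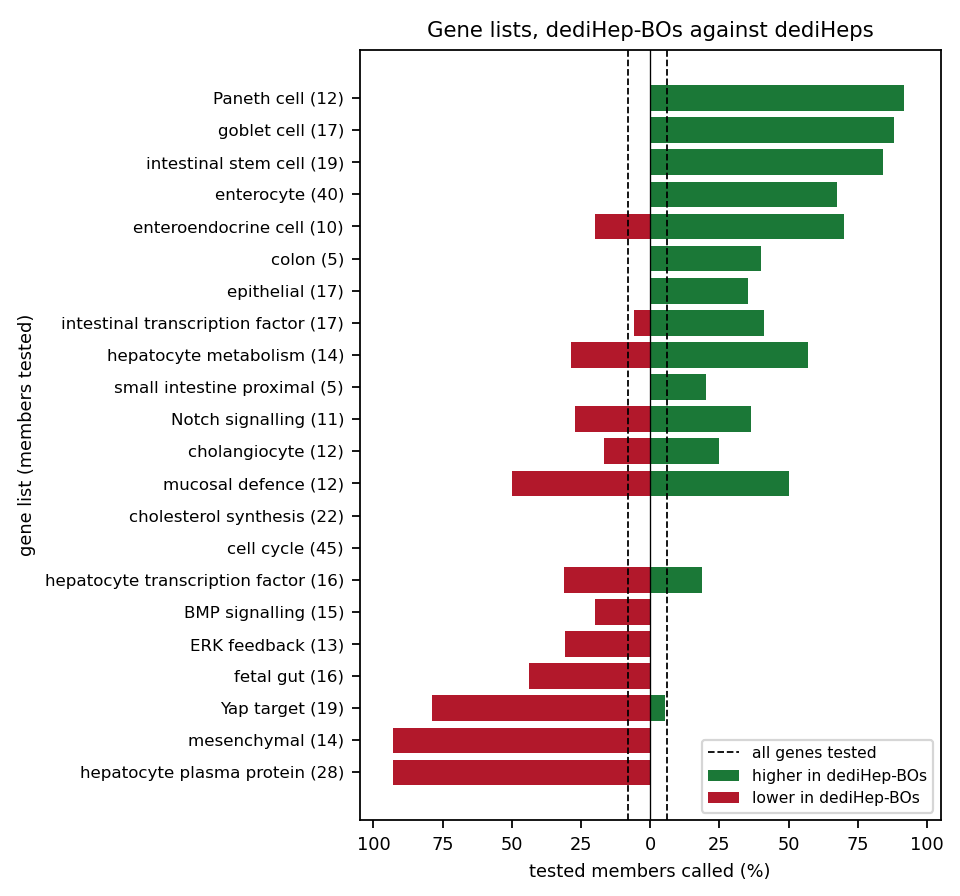
Share of the tested members of 22 gene lists that were higher (green, to the right) or lower (red, to the left) in dediHep-BOs than in dediHeps, in percent, with the number tested in brackets and the shares of all genes (6.17% and 8%) as dashed lines. The Paneth, goblet and stem cell lists reach furthest to the right and the plasma protein, mesenchymal and Yap lists furthest to the left, while no cell cycle or cholesterol synthesis gene was called.

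Hepatocyte plasma protein genes were lower in 26 of 28 tested members of 30 listed, with a median of -7.52 (-6.84 at the bounds). Their summed level was 240.1 to 521 CPM in dediHep-BOs and 4082 to 15590 CPM in dediHeps. Of the 30, 10 had no count in any dediHep-BO and could only come out lower or untested. Alb (chr5:90460897-90476602, plus strand), albumin, had no count in any dediHep-BO and 87.6, 625, 64.2, 788 and 965 CPM in the dediHeps, at least 1058-fold lower (edgeR adjusted p = 0.0015). Cp, ceruloplasmin, was 0.501, 0.432 and 0 CPM against 194 to 888, a ratio of 1890 in favour of the dediHeps (95% counting interval 523 to 15610). The complement component C3 was 0.501, 0.432 and 1.72 CPM against 228 to 1158 (-9.31 ± 0.83, edgeR adjusted p = 4.03e-05), and Fgb, the fibrinogen beta chain, 2.00, 0.432 and 0 CPM against 208 to 808 (-9.28 ± 0.85). Rbp4, the retinol carrier of plasma, fell less far, to 35.5, 16 and 41.4 CPM from 451 to 1526 (-5.04 ± 0.48). The members not called were Apoa2 and Ttr. Transthyretin, Ttr, named after its value was seen, was 392, 220.0 and 74.1 CPM against 309.9 to 1243 (-1.82 ± 0.56) and overlapped between groups. It was called lower after correction for UMI collisions (-2.21), without dediHep 1 (-2.02) and without dediHep-BO 1 (-2.45).

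Genes of hepatocyte metabolism did not fall together. Of 14 tested members of 32 listed, 8 were higher, 4 lower and 2 not called (median 2.55). Cps1, which forms carbamoyl phosphate for the urea cycle and for citrulline synthesis in gut, was 731, 588 and 916 CPM against 0, 1.53, 2.16, 15.5 and 17.8 (6.67 ± 0.87, edgeR adjusted p = 0.00036). Otc, the next enzyme, was 616, 542 and 484 CPM against 0.547 to 18.3 (5.90 ± 0.60). Ass1, the step after it, went the other way, at 2.00, 0.432 and 1.29 CPM against 12 to 17.1 (-3.50 ± 0.49). The gluconeogenic enzymes Fbp1 (49.6, 15.1 and 31.5 CPM against 0 to 1.93) and G6pc (25.5, 4.75 and 14.2 CPM against 0 to 0.508) were higher. Cyp3a11, a drug-metabolising cytochrome of liver and gut, was 139.7, 35.4 and 83.6 CPM against 3.83, 2.03, 4.01, 1.22 and 40.5 (3.09 ± 0.94, edgeR adjusted p = 0.036), with an overlap through dediHep 5 and a call that was lost without dediHep-BO 1 (2.55). Fah, of tyrosine breakdown, was 2.00, 1.30 and 2.59 CPM against 14.2 to 116 (-4.94 ± 0.70), and Gnmt, of methionine metabolism, 3.00, 3.46 and 3.88 CPM against 5.47 to 177 (-3.84 ± 1.18, edgeR adjusted p = 0.0363). Cyp27a1, of bile acid synthesis, had 2 counts in dediHep-BOs against 3.28 to 29.6 CPM. The Gnmt call was lost under the replicate block (-1.43), without any single dediHep-BO (-3.91 to -3.75) and among libraries without Y-linked counts (-1.42). The number of higher metabolism genes was 5 without dediHep-BO 1. The liver enzymes Cyp1a2 and Cyp7a1 were at or near 0 in both groups, with 1 count of Cyp7a1 in dediHep-BOs and none of Cyp1a2.

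Hepatocyte transcription factors were divided as well, with 3 of 16 higher (18.8%, beside 6.17% of all genes tested) and 5 lower (31.2%, beside 8%). Hhex, a homeobox factor of the liver bud, was 50.6, 36.7 and 18.5 CPM in dediHep-BOs and 247, 239, 155, 177 and 211 in dediHeps (-2.53 ± 0.38, edgeR adjusted p = 0.000827). Prox1, of early hepatoblasts, was 17.5, 30.7 and 44.4 CPM against 85.9 to 302 (-2.63 ± 0.48), Cebpb, of the acute-phase response, 49.1, 42.4 and 37.5 CPM against 103 to 717 (-2.98 ± 0.63), and Foxa2, a pioneer factor of endoderm, 87.6, 107 and 90.1 CPM against 243 to 716 (-2.21 ± 0.35, or -1.99 and not called without dediHep 2). The groups did not overlap for any of the 4. Nr1i3, a xenobiotic receptor, was 17.5, 16 and 15.5 CPM against 0 to 0.926. The related receptor Nr1i2 was higher at 55.6, 58.3 and 69.8 CPM against 0 to 28.5 (2.02 ± 0.74, edgeR adjusted p = 0.0696), a call at the edge of the threshold that was lost in 9 alternative fits (1.72 to 2.08). The last higher factor was Tbx3, of liver growth, at 1.00, 10.8 and 75.9 CPM against 0.508 to 7.72 (2.84 ± 1.01, edgeR adjusted p = 0.065). Its groups overlapped, and its call was lost without dediHep-BO 3 (0.60) or dediHep 2 (2.57) and under the replicate block (3.14).

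Bile duct genes moved in both directions, with 3 higher, 2 lower and 7 not called of 12 tested. The shares were 25% higher and 16.7% lower, beside 6.17% and 8% of all genes tested. Aqp1, a water channel, was 217, 185 and 205 CPM against 0 to 12 (5.79 ± 0.78, edgeR adjusted p = 0.000454), and Cftr, the chloride channel, 11.5, 10.8 and 25 CPM against 0. Bicc1, an RNA-binding protein of ducts, was 7.51, 7.35 and 4.31 CPM against 162 to 659.7 (-6.14 ± 0.56). Krt19, the keratin of ducts and gut that dediHeps acquire, was 167, 112 and 175 CPM against 92.5, 84.9, 512, 112 and 128 (-0.28 ± 0.58, edgeR adjusted p = 0.765), and without dediHep 3 the difference turned to 0.57. Prom1 was 214, 227 and 146 CPM against 14.5 to 157 (1.45 ± 0.66). It was not called, but was under the replicate block (2.93).

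Mesenchymal genes were lower in 13 of 14 tested members of 23 listed (median -3.48), and none of those tested was higher. Vim, the filament protein vimentin, was 2.50, 4.75 and 6.03 CPM in dediHep-BOs and 553, 236, 234, 132 and 187 in dediHeps (-5.90 ± 0.64, edgeR adjusted p = 0.000133). Fn1, fibronectin, was 14.5, 21.6 and 4.74 CPM against 147 to 1081 (-5.62 ± 0.78), and Cald1, an actin-binding protein, 6.51, 10.4 and 2.16 CPM against 153 to 421 (-5.45 ± 0.61). Zeb1, a repressor of epithelial genes, was 0, 0.864 and 0.862 CPM against 23 to 72.3 (-5.99 ± 0.72). The groups were separate for all of these. Lamb1, a laminin chain, was 6.51, 3.89 and 3.45 CPM against 7.73 to 42.2 (-2.68 ± 0.59), and S100a7a had 1 count in dediHep-BOs against 1.23 to 39.5 CPM. Without dediHep-BO 1 the number of lower mesenchymal genes was 8. DESeq2, the fit with no filter and the fit of all libraries each called 3 members of the list higher. The fits without dediHep-BO 3 and of the libraries without Y-linked counts also called 3 higher.

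Against this fall stood collagens of the same list that only some dediHep-BO libraries held. Counts of Col3a1 were 282, 210 and 4, of Col1a2 173, 288 and 0, and of Col1a1, named after its values were seen, 113, 156 and 1, in dediHep-BOs 1, 2 and 3. The dediHeps had 0 counts of the first and second and at most 2 in a library of the third. With a library near 0 these genes did not pass the filter, but in the fit without dediHep-BO 3, 3 of the 9 fibroblast genes searched were called higher. Over all 8 libraries DESeq2 called 5 of the 9 higher, the fit with no filter 7 and the fit of all libraries 4. The summed level of those 9 genes was 294, 294 and 3.02 CPM in the dediHep-BOs and at most 2.19 in the dediHeps. None of the 9 was at 0 over the dediHep-BOs. The receptors Pdgfra and Pdgfrb had 1, 2 and 0 and 2, 5 and 0 counts, and the matrix genes Dcn, Lum, Col6a3 and Postn, named after their values were seen, had 2, 1 and 0, 2, 3 and 0, 8, 12 and 0, and 4, 4 and 2 counts in dediHep-BOs 1, 2 and 3. The part of other cells in any result was not tested.

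Epithelial junction and identity genes were higher in 6 of 17 tested members and lower in none. Epcam, an adhesion protein of gut epithelium, was 556, 679.9 and 503 CPM against 2.19, 3.05, 32.7, 3.66 and 1.45 (6.01 ± 0.86, edgeR adjusted p = 0.000641). Cldn7, a claudin, was 200.2, 196 and 165 CPM against 0 to 1.85 (7.90 ± 0.59), Esrp1, a splicing regulator of epithelium, 50.1, 41.1 and 45.3 CPM against 0 to 1.22, and Rab25, of epithelial vesicle traffic, 62.6, 64.8 and 26.7 CPM against 0 to 0.482. Ovol1, a repressor of Zeb1, was 45.6, 53.6 and 41.4 CPM against 0 to 0.407. In contrast, Cdh1, E-cadherin, was 1132, 1004 and 822 CPM against 1138, 1359.7, 738, 824 and 736, a difference of 0.05 ± 0.26 (edgeR adjusted p = 0.914). Ocln was 408, 457 and 373 CPM against 80.1 to 365 (1.43 ± 0.45), short of the threshold, but 2.04 and called without dediHep 3. Cldn3 was 98.6, 94.2 and 124 CPM against 1.09, 0.508, 51.5, 41.5 and 0 (2.48 ± 1.14, edgeR adjusted p = 0.141). It was not called, but was without dediHep 3 (3.29) and under the replicate block (4.03).

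Yap target genes fell broadly, with 15 of 19 tested members lower and 1 higher and a median of -4.54. Axl (chr7:25757273-25788705, minus strand), a receptor tyrosine kinase, was 4.51, 2.16 and 1.29 CPM in dediHep-BOs and 479.6, 516, 403, 685 and 594 in dediHeps (-7.64 ± 0.45, edgeR adjusted p = 7.17e-06). Amotl2, which binds and restrains Yap, was 16.5, 22.5 and 9.05 CPM against 229.9 to 750.0 (-4.76 ± 0.53), and the phosphatase Ptpn14, which does likewise, 4.00, 5.19 and 3.02 CPM against 55.9 to 134 (-4.54 ± 0.48). Arhgef17, a guanine nucleotide exchange factor, fell less far, to 20.5, 19.9 and 17.2 CPM from 69.1 to 129 (-2.55 ± 0.32). Ccn1, formerly Cyr61, was 3.50, 4.32 and 1.29 CPM against 1357, 72.2, 74.4, 29.3 and 46.3 (-6.73 ± 1.72, edgeR adjusted p = 0.0162). Ccn2, formerly Ctgf, was 2.00, 3.03 and 0 CPM against 618, 39.7, 10.2, 12.2 and 33.3 (-6.42 ± 1.87, edgeR adjusted p = 0.0291). For both, dediHep 1 was far above its group. DESeq2 gave neither gene an adjusted p, so it could not call them (-6.73 and -6.44). Ccn2 was not called by edgeR without dediHep-BO 1 (-6.55) or 3 (-5.81). Rbms3, an RNA-binding protein, was the exception, at 31, 32.4 and 27.2 CPM against 0 in every dediHep.

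The promoter windows were searched in the same way for GGAATG, the core bound by the TEAD partners of Yap, and 6 of the 10 lower Yap targets with a window held it. The windows of Ccn1 (chr3:145649936-145650235, minus strand) and Axl (chr7:25788684-25788983, minus strand) are shown, the first as a gene commonly read as a Yap target and the second as the member with the smallest p-value, with the match in capitals.
Ccn1: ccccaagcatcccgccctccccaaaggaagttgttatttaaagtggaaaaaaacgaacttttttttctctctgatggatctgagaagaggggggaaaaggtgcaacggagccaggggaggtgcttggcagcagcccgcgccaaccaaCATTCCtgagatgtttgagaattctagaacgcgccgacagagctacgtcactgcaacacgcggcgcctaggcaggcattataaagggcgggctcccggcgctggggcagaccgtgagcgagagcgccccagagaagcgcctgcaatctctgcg
Axl: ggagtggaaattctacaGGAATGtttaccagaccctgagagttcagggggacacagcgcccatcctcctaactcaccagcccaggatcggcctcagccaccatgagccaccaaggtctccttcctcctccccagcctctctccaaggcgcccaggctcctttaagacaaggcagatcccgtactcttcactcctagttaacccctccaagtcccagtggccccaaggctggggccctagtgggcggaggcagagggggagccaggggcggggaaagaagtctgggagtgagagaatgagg
The core was common, being present in 16.6% of all genes with a window, in 19.1% of lower genes, in 19.2% of higher genes and in 13.4% of genes not called.

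Genes of the fetal and regenerating gut were lower in 7 of 16 tested members and higher in none (median -1.66). Anxa3, an annexin, was 51.6, 60.9 and 28.4 CPM against 836, 998, 599.5, 801 and 1082 (-4.18 ± 0.36, edgeR adjusted p = 3.44e-05). Msln, mesothelin, was 9.51, 32.4 and 9.05 CPM against 417 to 1137 (-5.50 ± 0.61), and Clu, clusterin, 139.7, 197 and 17.2 CPM against 909 to 1741 (-3.44 ± 0.65). Basp1, of the membrane cytoskeleton, was 2.00, 3.89 and 0 CPM against 177 to 749 (-7.51 ± 0.89). Spp1, osteopontin, which ducts also make, was 48.1, 50.6 and 7.33 CPM against 193 to 832 (-3.61 ± 0.71). In Clu and Spp1 the level of dediHep-BO 3 was well under that of the other dediHep-BOs. Ly6a, a marker of regenerating crypts outside the naming rule, was 52.1, 83 and 31 CPM and overlapped the dediHeps, which ran from 1.09 to 453.

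BMP signalling, which the organoid medium blocks with Noggin, gave 3 lower genes of 15 tested (20%, beside 8% of all genes tested). The other 12 were not called, and the part of Noggin was not tested. Bmp4, a ligand, was 0.501, 0 and 2.16 CPM against 43.2, 34.1, 40.1, 79.4 and 15.9 (-5.47 ± 0.83, edgeR adjusted p = 0.000901). Bmp7, another ligand, was 28, 26.8 and 41 CPM against 6.48 to 123 (-0.33 ± 0.74) and changed sign without dediHep 5 (0.66) and under the replicate block (0.95). The target Id1 was 144, 94.2 and 220.3 CPM against 551 to 709 (-2.05 ± 0.29, edgeR adjusted p = 0.000613), although its call was lost without dediHep 1 (-1.98) or dediHep-BO 2 (-1.80). Id2 was 451, 398 and 366 CPM against 543 to 1297 (-1.28 ± 0.31), short of the fold threshold. The groups of Bmp4, Id1 and Id2 did not overlap. Smad9, an intracellular mediator of BMP signals, had 2 counts in dediHep-BOs against 1.93 to 8.95 CPM, with a ratio of 18.6 in favour of dediHeps (95% counting interval 4.96 to 157).

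In the Notch pathway 4 of 11 tested genes were higher (36.4%, beside 6.17% of all genes tested) and 3 lower (27.3%, beside 8%). Atoh1, which commits cells to the secretory lineage, was 28.5, 39.3 and 56.5 CPM against 0 in every dediHep, at least 162-fold higher. The ligands Dll1 (14, 10.4 and 8.62 CPM against 0 to 1.23) and Dll4 (20.0, 13 and 17.2 CPM against 0), which secretory cells present to their neighbours, were higher, as was Lfng, which modifies Notch (12.1 to 18.2 CPM against 1.53 to 4.93). The receptor Notch2 was lower, at 8.01, 7.78 and 4.74 CPM against 27.5 to 58 (-2.36 ± 0.42, edgeR adjusted p = 0.00246), as was the target Hey1, with 1 dediHep-BO count against 4.01 to 17.1 CPM. The third was the ligand Jag1 (-2.25 ± 0.79, edgeR adjusted p = 0.0616), whose call was lost under the replicate block (-1.91), without dediHep 1 (-1.18) and without any single dediHep-BO.

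Feedback genes of the ERK pathway, which EGF activates in both media, were lower in 4 of 13 tested members (30.8%, beside 8% of all genes tested). Egr1, an immediate early gene, was 16.5, 22 and 9.05 CPM against 178 to 536 (-4.34 ± 0.50, edgeR adjusted p = 0.000169), and Dusp6, the ERK phosphatase, 79.6, 76.1 and 55.2 CPM against 191 to 657 (-2.43 ± 0.44). Ier3 and Fosl1 were lower too (-3.42 ± 0.52 and -3.60 ± 0.57). The remaining 9, among them Spry2 and Etv4, were not called.

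No gene of the cell cycle was called among 45 tested by edgeR, nor any of 22 genes of cholesterol synthesis, and DESeq2 called none of either. Their medians were 0.90 and 0.30. At an unadjusted p under 0.05, 16 cell cycle genes were higher and 0 lower, and 4 genes of cholesterol synthesis were higher and 2 lower. Without dediHep 3, 4 cell cycle genes were called higher, and among libraries without Y-linked counts 6 were. Mki67, a marker of proliferation, was 666, 673 and 680.2 CPM in dediHep-BOs against 79.9, 175, 605, 226 and 304 (1.30 ± 0.48, edgeR adjusted p = 0.0705). The groups did not overlap, and the gene was called only among libraries without Y-linked counts (2.41). Top2a, the topoisomerase of dividing cells, was 655, 574 and 709.5 CPM against 100.2, 346, 706, 386 and 406 and overlapped through dediHep 3. Msmo1, of sterol synthesis, was not called (0.25 ± 0.31).

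Markers of other organs were sparse. None of 6 lung genes had a count in dediHep-BOs. Of 9 pancreas genes the elastase Cela1 was tested and was higher, at 57.6, 42.8 and 108 CPM against 0.965 to 14.2 (3.99 ± 0.74). Pgc, a gastric pepsinogen, was 81.1, 90.8 and 0.862 CPM against 0 in the dediHeps and did not pass the filter. No endothelial gene was tested, and Pecam1 and Cdh5 had no count in dediHep-BOs. The hyaluronan receptor Lyve1 was 8.01, 4.32 and 8.19 CPM against 0 to 0.965 in dediHeps, and 1 endothelial gene was called higher in 9 alternative fits.

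Beyond these lists, the genes called with the smallest p-values in the rising direction were Kcnq1, Lyz2, Spink4, Muc2, Pigr, Lgr5, Atp8b1, Ccl25, Ociad2 and Gm1123. Kcnq1, a potassium channel of epithelium, was 1079, 893 and 701 CPM against 0, 0.508, 0.926, 0.407 and 0 (10.89 ± 0.48, edgeR adjusted p = 3.24e-06). Ccl25, the chemokine of small intestine that draws lymphocytes, was 229, 189.7 and 159.9 CPM against 2.89 to 6.02 (5.25 ± 0.32), and the lipid flippase Atp8b1 166, 142 and 139 CPM against 1.22 to 3.83 (6.05 ± 0.36). In the falling direction they were Axl, Arhgap23, Slco2a1, Ildr2, Qk, Cp, Ccl2, Soga3, Cxcl1 and Hspb1. Ccl2, the monocyte chemokine, was 2.00, 6.92 and 0.862 CPM against 1827, 1644, 731, 1460.0 and 985 (-8.62 ± 0.70, edgeR adjusted p = 3.06e-05). Slco2a1, a prostaglandin transporter, was 16, 10.8 and 9.05 CPM against 383 to 889 (-5.59 ± 0.42), Qk, a splicing regulator, 2.50, 1.30 and 1.29 CPM against 85.5 to 168 (-6.01 ± 0.46), and the small heat shock protein Hspb1 0, 0.432 and 2.16 CPM against 145 to 287 (-7.78 ± 0.66). These genes were chosen by their p-values in the same 8 libraries, so the separation of their groups is no further result.

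The dediHep-BOs were next set against dediHep-SOs, which share their cell of origin and matrix but had no Cdx2 transgene and stayed in the Wnt medium. All 3 comparisons use the same dediHep-BO libraries, so their values are placed side by side and not correlated. The sample descriptions give dediHep-SO 1 the same identifier as dediHep 1 and the first library of dediHep aggregates, but it held 623 Y-linked counts and none of Xist, whereas those held 0 Y-linked counts and 738 and 366 of Xist, so its counts go against that identifier. Of 11301 genes tested, 633 were higher in dediHep-BOs (5.6%) and 642 lower (5.68%), but without dediHep-SO 3 the numbers were 1246 and 862, and without dediHep-SO 1 they were 661 and 573. Of 19 tested stem cell genes 6 were higher and none was lower. Lgr5 was 129, 119 and 188 CPM in dediHep-SOs (log2 fold change of dediHep-BOs 0.56 ± 0.29, edgeR adjusted p = 0.176), and Ascl2 499.9, 586 and 355 CPM. Enterocyte genes were higher in 32 of 41 tested members. Fabp1, Fabp2 and Sis had no count in dediHep-SOs, and Alpi was 0, 0 and 10.9 CPM (6.89 ± 0.99). Lyz1 was 0, 0 and 3.17 CPM (10.60 ± 0.75), and Muc2 20.8, 30.1 and 3.17 CPM (3.89 ± 0.58, edgeR adjusted p = 0.0011). In contrast, Mmp7 was 1266, 1946 and 1464 CPM in dediHep-SOs (-1.10), where its counts reached 4018, close to the most that UMIs of 6 bases can count, and it was called lower in dediHep-BOs after correction for UMI collisions (-2.31 ± 0.36, edgeR adjusted p = 0.00137). Fetal gut genes were lower in 12 of 16 and higher in 1. Clu was 1258, 1975 and 1483 CPM in dediHep-SOs (-3.72 ± 0.68, -5.26 with the same correction), and Msln 643, 1020.2 and 576 CPM (-5.43 ± 0.54, edgeR adjusted p = 0.000109). Among the genes with the largest differences, Reg3a, a lectin related to Reg3g, was 403, 202 and 94.8 CPM in dediHep-BOs and had no count in dediHep-SOs or dediHeps. Stra6, the membrane receptor for retinol-binding protein, had 2 counts in dediHep-BOs against 421, 464 and 300.0 CPM in dediHep-SOs and 0 to 10.4 CPM in dediHeps. The secreted protein Wfdc2 had 1 count in dediHep-BOs against 664, 864 and 256 CPM in dediHep-SOs and 107 to 748 CPM in dediHeps.

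Against ISC-BOs, the same form of organoid grown from intestine, 152 of 11303 tested genes were higher in dediHep-BOs (1.34%) and 193 lower (1.71%), and 85.8% of genes lay within 1 log2 unit. Without dediHep-BO 3 the numbers were 242 and 237, and against ISC-BOs 3 and 4 alone, chosen after seeing the data for their Y-linked counts, 177 and 150. Enterocyte genes were lower in 3 of 45 tested members and higher in none, with a median of -0.38. Sis was 133, 129, 87.9 and 236 CPM in ISC-BOs (0.41 ± 0.40, edgeR adjusted p = 0.555), and Lyz1 1788, 1165, 1334 and 1420.4 CPM (0.22 ± 0.17). In both the 2 groups overlapped, but counts of Lyz1 were 3740, 3738 and 3056 in dediHep-BOs and 2756 to 3180 in ISC-BOs, near the most that UMIs of 6 bases can count, which compresses its difference. With the correction for UMI collisions it was 0.64 ± 0.27 (edgeR adjusted p = 0.196). Paneth cell genes differed in both directions, with 7 defensins lower and Ang4, Habp2, Mptx1 and Pnliprp2 higher of 18 tested. Defa22, named after its value was seen, was 8.01, 3.03 and 5.6 CPM in dediHep-BOs and 57.3, 56.7, 43.1 and 45.6 in ISC-BOs (-3.14 ± 0.35, edgeR adjusted p = 0.000553), while Ang4 was 121, 55.4, 72.2 and 72.5 CPM in ISC-BOs (2.35 ± 0.29). Enteroendocrine cell genes were lower in 7 of 18 tested members. Of these, named after their values were seen, Gip had 1 count in dediHep-BOs and 9.57 to 27.1 CPM in ISC-BOs, Sst was 0.501, 0.864 and 2.16 CPM against 8.21 to 124 (-5.46 ± 0.95), and Cck 23.5, 19.4 and 3.02 CPM against 56.1 to 137 (-2.74 ± 0.57). The proximal factors Gata4 (18, 17.7 and 35.3 CPM against 69.6 to 247, -2.45 ± 0.46) and Pdx1 (no count, at least 18.9-fold lower), also outside the naming rule, were lower. Against ISC-BOs 3 and 4 alone Gata4 was not called (-1.86 ± 0.35) and Pdx1 was not tested.

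Some genes that were lower than in dediHeps were still above their level in ISC-BOs. Hhex, at 50.6, 36.7 and 18.5 CPM in dediHep-BOs, was 0.562, 0.846, 0.870 and 0 in ISC-BOs (5.84 ± 0.57, edgeR adjusted p = 0.000284). Spp1 had no count in ISC-BOs, so dediHep-BOs were at least 99.8-fold higher, and Clu was 7.87, 7.61, 5.22 and 1.37 CPM (4.48 ± 0.73). Fn1 had 2 counts over the ISC-BOs. Within the dediHep-BOs, Hhex, Spp1, Clu and Fn1 were each lowest in dediHep-BO 3, the library with the fewest collagen counts. Whether these transcripts were kept from the dediHeps or came from other cells was not tested. Others were high in neither comparison group: Ifitm1, an interferon-induced membrane protein, was 50.1, 58.3 and 54.7 CPM in dediHep-BOs, with 1 count in the dediHeps and 0 to 0.912 CPM in ISC-BOs (6.76 ± 0.51), but was 801, 915 and 185 CPM in dediHep-SOs. Reg3g was 33.7, 20.7, 12.6 and 35.1 CPM in ISC-BOs (4.35 ± 0.67). The placental hormone genes Prl2c2 (35.5, 9.94 and 4.74 CPM) and Prl2c3 (25, 13.4 and 7.33 CPM), close copies whose counts may be shared, and Cyp1b1 (7.01, 9.94 and 5.6 CPM), a cytochrome induced by the aryl hydrocarbon receptor, had no count in ISC-BOs and were higher than in dediHeps too (4.13 ± 0.81, 4.78 ± 0.81 and 3.32 ± 0.76).

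Other genes were lower in dediHep-BOs than in both dediHeps and ISC-BOs. The choline transporter-like gene Slc44a2 was 3.50, 4.32 and 1.29 CPM in dediHep-BOs against 73.7 to 221 in dediHeps and 10.5 to 103 in ISC-BOs (-3.60 ± 0.86 against the latter, edgeR adjusted p = 0.0345). Osbpl5, of lipid transfer between membranes, was 1.00, 0.864 and 3.45 CPM against 2.04 to 89.7, where dediHep 4 overlapped, and 16.9 to 26.4 (-3.45 ± 0.47). Ccdc114, of ciliary dynein docking, was 0, 0.864 and 1.29 CPM against 3.83 to 13 and 8.21 to 35.9 (-4.51 ± 0.76). Rnf144b, a ubiquitin ligase, had 1 count in each dediHep-BO, against 15.9 to 126 CPM in dediHeps and 5.62 to 17.8 in ISC-BOs.

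Cdkn2b, the inhibitor of CDK4 and CDK6 called p15, was absent from all 3 dediHep-BOs. Its level was 150.0, 102, 1.85, 6.11 and 32.8 CPM in dediHeps, which makes dediHep-BOs at least 108-fold lower, and 27.5, 30.9, 21.8 and 36.9 CPM in ISC-BOs, at least 64.8-fold. The dediHep-SOs held 0, 0 and 48 CPM. Its neighbour Cdkn2a, named after its value was seen, had no count in dediHep-BOs, dediHep-SOs or ISC-BOs and 35.6, 0.508, 0, 2.04 and 6.27 CPM in dediHeps. Mtap, which lies next to these genes and was named on the same basis, was present at 280.3, 235 and 147 CPM in dediHep-BOs, against 125 to 142 CPM in ISC-BOs and 289 to 661 in dediHeps.

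**Figure D5:**
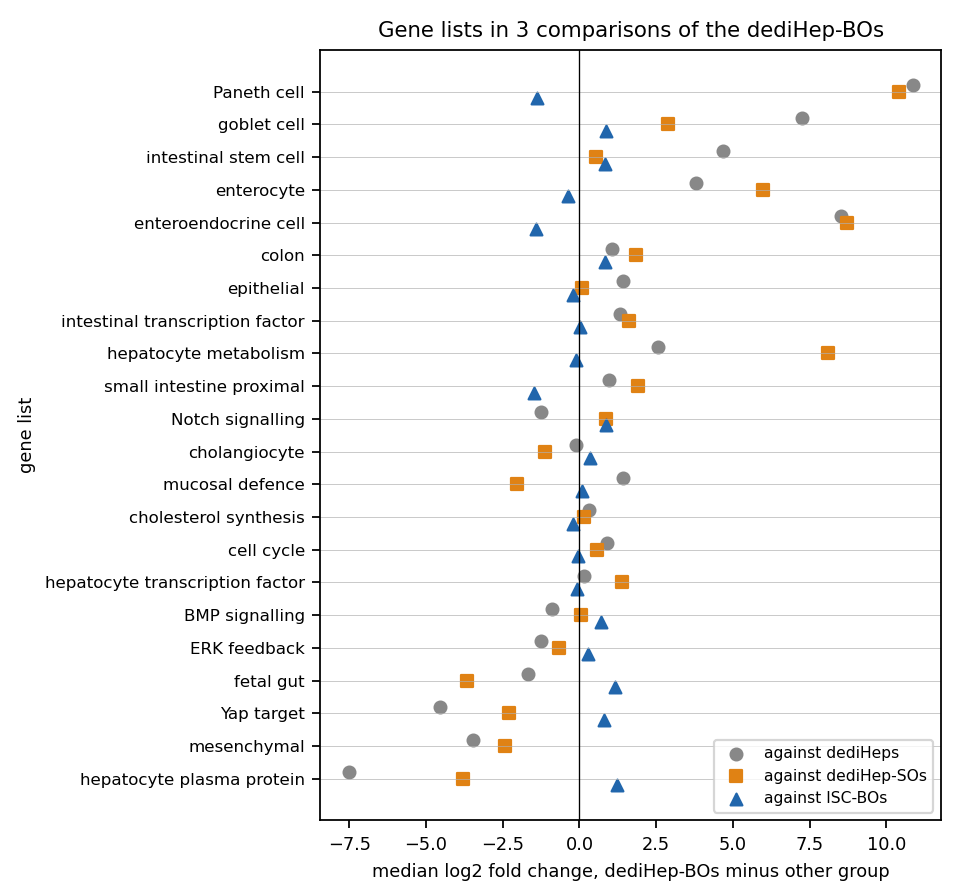
Median log2 fold change of the tested members of 22 gene lists (rows) in dediHep-BOs against dediHeps (circles), dediHep-SOs (squares) and ISC-BOs (triangles), with 0 as the vertical line. The 3 comparisons share the dediHep-BO libraries and differ in the members that passed the filter. Lists with under 5 tested members in a comparison have no symbol there. Against ISC-BOs the medians lie between -1.48 for proximal small intestine genes and 1.23 for plasma protein genes, whereas against dediHeps they run from -7.52 to 10.86.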

How the data were processed

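CEL-Seq2 libraries of 49 samples in 16 groups were analysed from a single table of UMI counts deposited by the authors. Per the labels and methods, the authors used bcl2fastq 2.20, Bowtie2 2.3.1 and HTSeq 0.6.0 with the GRCm38 genome through the celseq2 pipeline. The table holds 46078 identifiers, 45143 of them with a symbol. With UMIs of 6 bases, at most 4096 molecules of a gene can be counted in a library, and this ceiling was reached. Counts were tested with edgeR 4.0.16 in R 4.3.3 (TMM factors, filterByExpr with a minimum count of 10 and minimum total of 15, glmQLFit and glmQLFTest, Benjamini-Hochberg over all genes tested). Only the 2 groups compared entered each fit. The levels printed are CPM computed here on TMM library sizes over all 49 libraries. Where a group had no count, a fold is a bound against 3 counts over the group, and where it had 1 to 3 counts a ratio or the counts are given. The code was tested on simulated data. Same-numbered dediHep-BOs and dediHeps deviated together (r of 0.189, 0.160 and 0.170 across genes, against -0.267 to 0.147 for the other pairs). The main fits were unpaired, and the numbers were treated as pairs only in the replicate block named below. No label ties a dediHep-BO to a culture, and the pairing comes from the data alone. The genes named were Cdx2, genes the paper names for organoids or dediHeps, the 10 with the smallest p in each direction, up to 4 called members of each list in its main direction and up to 2 in the other or, with none called, the 2 with the highest mean, the 5 with the largest change in each direction in the other comparisons, and members against their list's direction. Some genes that these rules name are not reported here. Others are marked as chosen after their values were seen. Members and lists were chosen with earlier results of these data known. Alternatives were DESeq2 1.42.0, RLE factors, other filters and thresholds, all libraries in 1 fit, a UMI collision correction, thinning, a replicate block and leaving out each library. Promoter windows came from RefSeq (GRCm38.p6). The remaining libraries were not analysed here beyond Cdx2, the Y-linked genes and the fit of all libraries.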

Additional observations from a re-analysis of the deposited data

Results flagged for a closer look

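In some groups of 4 or 5 libraries, 1 library stood apart from the rest by Dixon's criterion on its gap to the nearest value. The criterion marks about 1 in 20 groups of independent, normally distributed values. The sets here share the same libraries and some hold values near the floor, so that rate is no measure of chance for them. Of 255 sets of values examined, 43 held such a library, 28 among the dediHeps and 15 among the ISC-BOs. The dediHep-BOs and dediHep-SOs, with 3 libraries each, were not examined.

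In dediHep 1 the high values were Ccn1 at 1357 CPM, Ccl20 at 773, Ccn2 at 618, Vim at 553, Jag1 at 125, Notch2 at 58, Cdkn2a at 35.6 and Nts at 32.3 CPM. In dediHep 3 they were Krt19 at 512 CPM, Ocln at 365, Alpi at 134, Apoa4 at 49.7, Epcam at 32.7, Aqp1 at 12, Cyp1b1 at 2.16 and Dll1 at 1.23 CPM, while Arhgef17 was low at 69.1 CPM. In dediHep 4, Mtap was high at 661 CPM, Saa3 at 420, Cela1 at 14.2 and Ascl2 at 5.29 CPM. In dediHep 5, Ildr2 was high at 332 CPM, Gnmt at 177, Bmp7 at 123, Cyp3a11 at 40.5, Cyp1a2 at 3.86 and Fbp1 at 1.93 CPM, and Ccl25 was low at 2.89 CPM.

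Among the ISC-BOs, library 2 was high for Hnf4a (393 CPM), Slc44a2 (103 CPM), Nos1ap (18.6 CPM) and Ccn1 (2.11 CPM), and low for Mki67 (267 CPM), Smoc2 (51.2 CPM) and Dusp6 (11.4 CPM). Library 4 was high for Krt20 (362 CPM) and Chga (253 CPM) and low for Cdx2 (308 CPM) and Ly6a (1.37 CPM). Library 1 was high for Dll4 (12.9 CPM) and Arhgap23 (2.81 CPM), and library 3 low for Prox1 (6.09 CPM) and Lct (5.22 CPM).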

How the results depend on the processing

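Against dediHeps, the number of higher genes (726) was 1131 with DESeq2, 1356 with no filter on low counts, 1141 with all 49 libraries in 1 fit and 1366 at an absolute log2 fold change over 1, where 1897 genes were lower. The higher genes against dediHep-SOs numbered 964, 1234 and 966 and against ISC-BOs 280, 455 and 287 in the first 3 of these settings. Without the filter 1151 genes were lower than in dediHep-SOs and 343 lower than in ISC-BOs, and 987 were lower than in dediHep-SOs in the fit of all libraries. These 3 settings test more genes of low count, and the cause of the remaining shifts was not tested. Leaving out 1 library gave 693 to 843 genes higher and 868 to 948 lower than in dediHeps, 598 to 1246 (without dediHep-SO 3) higher and 573 to 862 lower than in dediHep-SOs, and 134 to 242 (without dediHep-BO 3) higher and 157 to 237 lower than in ISC-BOs. With the replicate number as a block, 768 genes were higher and 874 lower than in dediHeps, and apart from the genes whose block values are given above and Nos1ap (-1.71) and Stra6 (-3.68), which lost their calls, it changed no call of a named gene. The numbers did not pair the dediHep-BOs with dediHep-SOs (r from -0.209 to -0.006) or ISC-BOs (-0.043 to 0.145), where the block gave 699 and 619 and 213 and 211 genes. By the sample descriptions dediHep-SO 2 carries the identifier of dediHep 3, and dediHep-SO 3 that of dediHep 2. The dediHep-SO numbers thus do not follow the cultures, and their block does not test a shared culture. A pair of unlike numbers, dediHep-BO 1 and dediHep-SO 3, reached an r of 0.252. Of 140 called genes named here, 124 kept their call in all of the 17 alternatives that tested them, and 13 of 19 not called gained none. A fit that gave a gene no adjusted p was counted as a lost call. Differences near 0 changed sign: Krt19 to 0.57 without dediHep 3 (-0.47 to 0.57 without 1 library) and 0.66 among libraries without Y-linked counts; Cdh1 to -0.10 under the block, -0.01, -0.01 and -0.05 without dediHep 3, 4 or 5, -0.06 without dediHep-BO 1 and -0.21 without Y-linked counts; Ly6a to 0.65 and 1.90 in the block and Y-linked settings; and Bmp7 to 0.95 and 0.20 in these and 0.66 without dediHep 5 (-0.58 to 0.66 without 1 library). At these depths a gene under about 1 to 2 CPM in a library could not be told from 0.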

Other observations

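Several genes outside the naming rule, looked at after the results were known, add detail. Tff3, the trefoil peptide of goblet cells, was 513, 488 and 423 CPM in dediHep-BOs and 0.547, 1.02, 32.1, 15.9 and 0.482 CPM in dediHeps (5.52 ± 0.99, edgeR adjusted p = 0.0024), and in ISC-BOs it ran from 174 to 449 CPM and overlapped. Dclk1, a marker of tuft cells, was 7.01, 12.1 and 2.16 CPM in dediHep-BOs and 7.83 to 11 CPM in ISC-BOs, but 156, 184 and 108 CPM in dediHep-SOs (-4.38 ± 0.52, edgeR adjusted p = 0.00032). Gcg, proglucagon, was 4.51, 0.864 and 0.431 CPM in dediHep-BOs against 12.7 to 49.2 CPM in ISC-BOs (-4.04 ± 0.70, edgeR adjusted p = 0.00767). Ankrd1, a further Yap target, was 2.50, 3.03 and 0 CPM in dediHep-BOs against 478, 492, 195, 286 and 11.6 CPM in dediHeps (-7.28 ± 1.31, edgeR adjusted p = 0.00245). Cdx2 was 282 to 404 CPM in spherical organoids of fetal intestinal progenitors and 3.87 to 23.5 CPM in dediHep aggregates.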
